A study of Mus musculus with 3 samples.

Results

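The Schlafen genes were followed across 3 cytokine conditions of activated mouse CD4 T cells. The family was taken as 7 genes, Slfn1, Slfn2, Slfn3, Slfn4, Slfn5, Slfn8 and Slfn9, and each was read through the probe sets that carry its symbol and no other. This gave 11 of the 45037 probe sets that were not array controls, and 7 of 18193 named genes. A further probe set that matches both Slfn3 and Slfn4 was therefore no member.

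The cells were CD4+CD25- T cells purified from the spleen and lymph nodes of BALB/c females aged 6 to 8 weeks, and all mice lacked both Stat6 and T-bet. Every culture received anti-CD3 bound to the plate (5 µg/ml) and anti-CD28 (1 µg/ml) for 2 days. The cytokines added were IL-6 (10 ng/ml) with TGFβ (5 ng/ml), IL-6 (10 ng/ml) with IL-23 (10 ng/ml), or TGFβ alone (5 ng/ml). Each condition was measured on 1 Affymetrix array, so differences below describe 3 arrays, carry no p-value and leave the spread between cultures and mice unknown. The deleted alleles were shared by all conditions, and no array of cells with intact Stat6 or T-bet, or of unstimulated cells, was used here.

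Schlafen genes take their name from the German word for sleeping and were found as genes regulated during thymocyte maturation and T cell activation. The short members, Slfn1 and Slfn2, carry the Schlafen core alone, Slfn3 and Slfn4 are of intermediate length, and the long members Slfn5, Slfn8 and Slfn9 add a helicase-like part. Slfn2 is needed in mouse T cells to keep the resting state and to survive activation, and several members are induced by type I interferon. The study compared IL-6 with TGFβ against TGFβ alone to find genes of Th17 polarization, and against IL-6 with IL-23 to single out genes tied to IL-10.

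Levels are quantile-normalized intensities in arbitrary units, and ratios are on the log2 scale. The floor, below which a value was read as no measurement, lay at 87.2, a value exceeded by 5% of the readings from 77 probe sets for genes typical of other tissues. A gene counted as higher or lower when the ratio was at least 2-fold and the brighter array was above the floor. As deposited, array medians were 28.1 for IL-6/TGFβ, 17.8 for IL-6/IL-23 and 35.8 for TGFβ, which is why the arrays were normalized. The 11 T cell markers with a probe set were all above the floor on the 3 arrays, and Cd4 itself read 716, 904 and 1333 in that order. Of these markers Cd28 alone passed the 2-fold rule, for IL-6/IL-23 relative to TGFβ (1.59). All 5 B cell and all 5 dendritic cell markers were at the floor on every array, as were 10 of 11 myeloid markers. The brighter Stat6 probe set read 223, 191 and 259, and Tbx21, the T-bet gene, read 118, 205 and 190. The deleted part of either gene is not given in the labels, so these readings do not check the genotype.

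Of the 7 Schlafen genes, 3 were above the floor on all 3 arrays, namely Slfn1, Slfn2 and Slfn9. Slfn3 passed it on the TGFβ array alone. The other 3 genes, Slfn4, Slfn5 and Slfn8, were at the floor everywhere, so nothing was read from their differences. For comparison, 47.2% of all named genes were above the floor on at least 1 array. By probe set, 3 of the 11 were above the floor on every array, 1 on some and 7 on none.

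**Figure D1:**
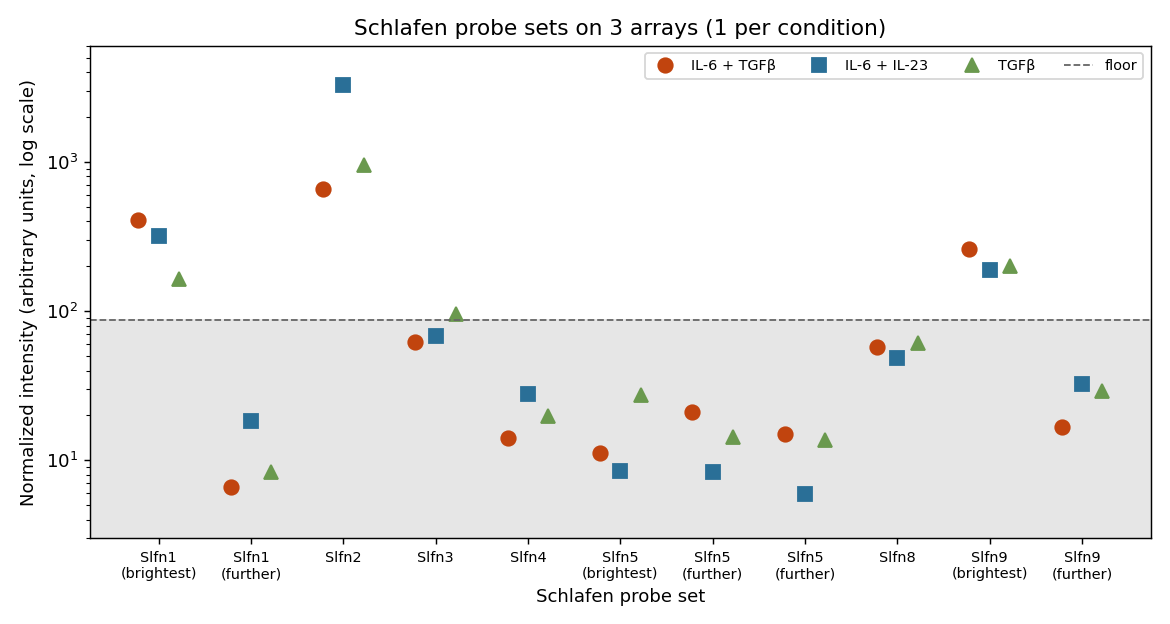
Normalized intensity (log scale, arbitrary units) of each of the 11 Schlafen probe sets on the IL-6/TGFβ, IL-6/IL-23 and TGFβ arrays, 1 point per array, with values below the dashed floor of 87.2 shaded. With IL-6/IL-23, Slfn2 reached 3285, while the probe sets of Slfn4, Slfn5 and Slfn8 lay below the floor on all 3 arrays.

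Slfn2, the short member that T cells need for quiescence, differed most between conditions. It read 657 with IL-6/TGFβ, 3285 with IL-6/IL-23 and 949 with TGFβ. After normalization the IL-6/IL-23 array was thus the high one, and both arrays of cells given TGFβ were lower. The level with IL-6/TGFβ was 5.00-fold lower than under IL-6/IL-23 (log2 ratio -2.32), and 29 of 8587 measured genes had a lower ratio in that comparison. With IL-6/IL-23 it was 3.46-fold higher than with TGFβ (1.79), and 78 genes had a higher ratio. IL-6/TGFβ and TGFβ were closer to each other, at a log2 ratio of -0.53, which is under the 2-fold rule. In bulk samples like these, fewer cells of a type and less RNA per cell cannot be told apart. The IL-6/IL-23 condition differed from IL-6/TGFβ in both TGFβ and IL-23, so that ratio belongs to neither cytokine alone. From TGFβ alone it differed in IL-6, IL-23 and TGFβ, which cannot be told apart either.

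The only error that could be taken from 1 array per condition is how far log2 ratios of 2 probe sets of the same gene lie apart. Expressed as an SD for 1 probe set, this was 0.21 for IL-6/TGFβ relative to TGFβ, 0.28 for IL-6/TGFβ relative to IL-6/IL-23 and 0.29 for IL-6/IL-23 relative to TGFβ. It leaves out the spread between cultures and between arrays, so a ratio beyond it need not repeat. Both large Slfn2 ratios exceeded this spread, but Slfn2 has 1 probe set, so no further probe set could check them. Without any scaling of the arrays, the Slfn2 ratio of IL-6/TGFβ relative to IL-6/IL-23 was still -1.93. The ratio of IL-6/IL-23 relative to TGFβ was then 0.94, under 2-fold, while the median of all genes was -0.84 in the same setting, which puts Slfn2 at 1.78 relative to that median. As deposited, Slfn2 read 655 with IL-6/TGFβ, 2494 with IL-6/IL-23 and 1303 with TGFβ, so the array that was dimmest overall held the brightest Slfn2 value. The TGFβ array then lay between the others, with -0.99 for IL-6/TGFβ relative to TGFβ, or -0.57 relative to the median of all genes.

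Slfn1, the other short member, which slows growth when forced on in mouse thymocytes, had a different order of levels. Its brighter probe set read 406 with IL-6/TGFβ, 320 with IL-6/IL-23 and 163 with TGFβ. Here the array of TGFβ alone was low, and both arrays of cells given IL-6 were above it. Slfn1 was 2.49-fold higher with IL-6/TGFβ than under TGFβ alone (1.31), a ratio exceeded by 120 of 8587 genes. IL-6/TGFβ and IL-6/IL-23 differed by 0.35, close to the probe-set spread of 0.28. IL-6/IL-23 relative to TGFβ gave 0.97, just under 2-fold.

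The Slfn1 readings depended on scaling and on the probe set. As deposited, Slfn1 read 408 with IL-6/TGFβ, 227 with IL-6/IL-23 and 229 with TGFβ. The ratio of IL-6/TGFβ relative to TGFβ without scaling was 0.83, below the 2-fold rule, and that of IL-6/IL-23 relative to TGFβ was -0.01. Relative to the median of all genes in that setting, these ratios were 1.26 and 0.83. The further Slfn1 probe set was at the floor on every array, with 6.60, 18.3 and 8.42, so no ratio was read from it.

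Slfn9, a long member, was the third gene measured everywhere. It read 262 with IL-6/TGFβ, 189 with IL-6/IL-23 and 200.3 with TGFβ. The 3 values lay close together, and its ratios were 0.39 for IL-6/TGFβ relative to TGFβ, 0.47 for IL-6/TGFβ relative to IL-6/IL-23 and -0.08 for IL-6/IL-23 relative to TGFβ. None reached 2-fold after normalization. Without scaling, IL-6/TGFβ relative to IL-6/IL-23 was 1.02 and IL-6/IL-23 relative to TGFβ was -1.09, both past the rule. Relative to the median of all genes in that setting these ratios were 0.61 and -0.24, inside the 2-fold limits. The further Slfn9 probe set was at the floor on every array, between 16.7 and 32.3.

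The remaining members were dim. Slfn3, an intermediate member studied in rat for intestinal cell differentiation, read 62.4 with IL-6/TGFβ, 68.7 with IL-6/IL-23 and 95.9 with TGFβ. Only the last value passed the floor, which makes Slfn3 at least 1.10-fold lower in either other condition and leaves it under the rule. Slfn4, known from myeloid cells, read 14.1, 27.9 and 19.8 in the same order of conditions. The probe set that matches both genes read 55.6, 71.6 and 64.8, below the floor on all arrays.

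Slfn8, a long member, read 57.4 with IL-6/TGFβ, 48.6 with IL-6/IL-23 and 61.3 with TGFβ, among them the highest value of any member probe set that stayed at the floor throughout. Slfn5, the long member that interferon induces in many cell types, had 3 probe sets, and all 9 readings lay between 5.97 and 27.4. At this signal, Slfn4, Slfn5 and Slfn8 were not detectable above the tissue floor, which does not show that they were absent. A floor of 36.5, taken without Mbp, Krt10 and Cela1, 3 genes of the floor list that were bright here, raised the number of measured members to 5 by adding Slfn8 and changed no count of members. That floor was chosen after the values were seen.

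The members called are counted here out of the 4 above the floor on at least 1 array. For IL-6/TGFβ relative to TGFβ, 1 member was higher (Slfn1) and 0 were lower, where 2.49% of measured genes were higher and 1.75% lower. For IL-6/TGFβ relative to IL-6/IL-23, 0 members were higher and 1 was lower (Slfn2), against 3.59% higher and 3.05% lower among all genes. For IL-6/IL-23 relative to TGFβ, 1 member was higher (Slfn2) and 0 were lower, against 3.18% higher and 3.02% lower. The medians of these 4 members were 0.13, 0.17 and 0.44 in these comparisons, beside 0.01, -0.03 and 0.05 for all 8587 measured genes. The comparisons share arrays, so the lower and the higher call of Slfn2 both rest on the IL-6/IL-23 array.

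**Figure D2:**
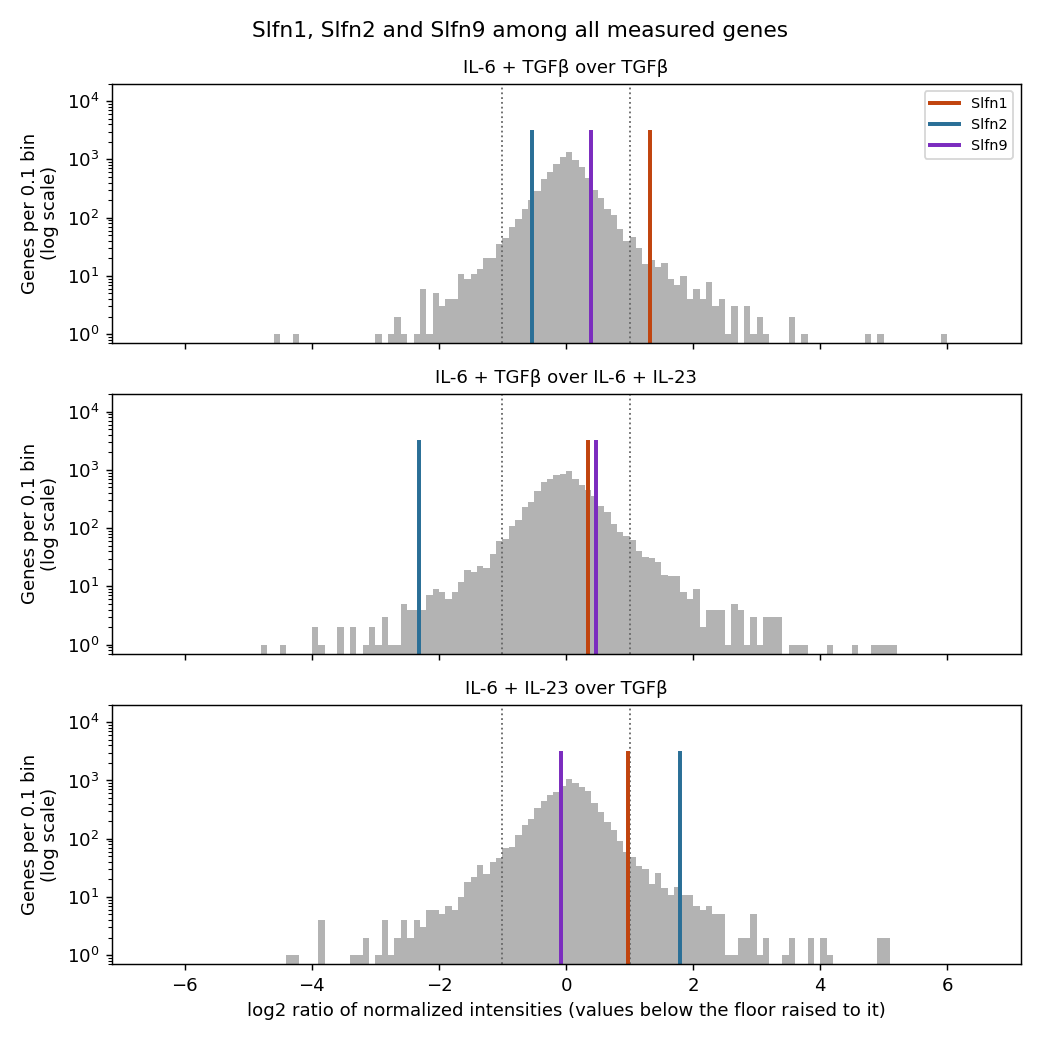
Number of measured genes (log scale, bins of 0.1) by log2 ratio in each comparison, with the 2-fold limits dotted and coloured lines at Slfn1, Slfn2 and Slfn9. Slfn2 lay at -2.32 for IL-6/TGFβ relative to IL-6/IL-23 and at 1.79 for IL-6/IL-23 relative to TGFβ, Slfn1 at 1.31 for IL-6/TGFβ relative to TGFβ, and Slfn9 inside the limits in all comparisons.

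The genes lie together on mouse chromosome 11. In the RefSeq order of GRCm38.p6 the members run Slfn5, Slfn9, Slfn8, Slfn2, Slfn1, Slfn4 and Slfn3, with the pseudogene Slfn10-ps between Slfn8 and Slfn2. Slfn2 and Slfn1, the members that passed the 2-fold rule, are thus direct neighbours, but with different orders of conditions. Slfn10-ps, no member and named after its values were seen, read 118 with IL-6/TGFβ, 138 with IL-6/IL-23 and 111 with TGFβ, with no ratio past 2-fold.

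Outside the cluster, the 5 nearest measured genes on either side gave a mixed picture. Among these 10, for IL-6/TGFβ relative to IL-6/IL-23, 0 were higher and 2 lower, the chemokine genes Ccl3 and Ccl4. Of all genes, 3.59% were higher and 3.05% lower there. Ccl3 (-2.68) and Ccl4 (-1.20) were also lower for IL-6/TGFβ relative to TGFβ, as were 1.75% of all genes but not Slfn2. For IL-6/IL-23 relative to TGFβ, 1 was higher, Ccl4 (1.11), and 0 were lower, against 3.18% and 3.02% of all genes. Ccl4 read 138 with IL-6/TGFβ, 684 with IL-6/IL-23 and 317 with TGFβ, and so had the order of levels seen for Slfn2. That order was not particular to Ccl4. Ccl3 had it too, as did Nle1, Rad51d, Lig3 and Ddx52 with no ratio past 2-fold, while Rffl, Zfp830, Ap2b1 and Heatr6 did not. Of all measured genes, 19.3% had it. Nearer to the cluster, the adaptor subunit gene Ap2b1 on the Slfn3 side read 647, 559 and 616, and Nle1 on the Slfn5 side read 340, 650 and 449, neither past the rule in any comparison.

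**Figure D3:**
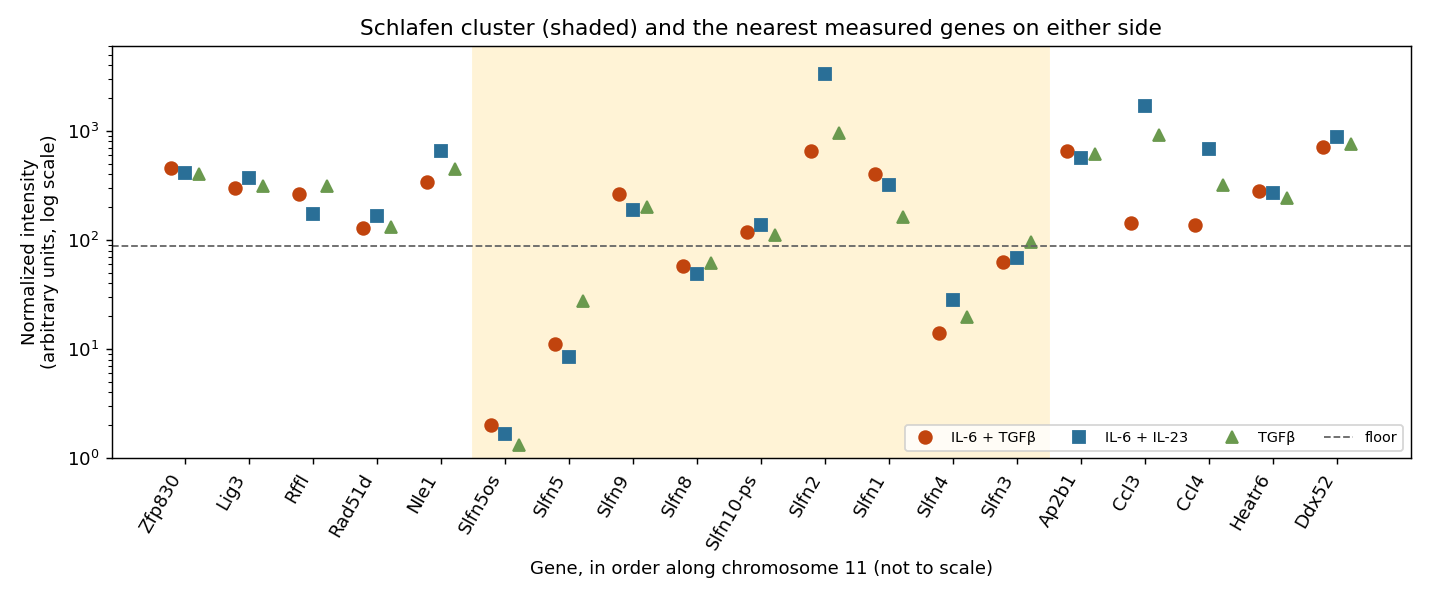
Normalized intensity (log scale, arbitrary units) of the Schlafen cluster (shaded) and the 5 nearest measured genes on either side, in gene order along chromosome 11 and not to scale, with 1 point per array. Slfn2 and Slfn1 stand above the dashed floor between Slfn10-ps, which lies nearer to it, and the dim Slfn4. Ccl3 and Ccl4 show their lowest points on the IL-6/TGFβ array.

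The promoters of the members that differed are shown because these neighbours had different orders of conditions. Sequences are from RefSeq (GRCm38.p6), reach from 250 bases before the gene's start to 50 after it, and were found for all 7 members. Capitals mark ACTTCCTGG, the longest run of bases that the promoters of Slfn1, Slfn2, Slfn3 and Slfn4 all hold on the gene's strand, at chr11:83116570-83116869 (+) for Slfn1 and chr11:83064862-83065161 (+) for Slfn2.
Slfn1: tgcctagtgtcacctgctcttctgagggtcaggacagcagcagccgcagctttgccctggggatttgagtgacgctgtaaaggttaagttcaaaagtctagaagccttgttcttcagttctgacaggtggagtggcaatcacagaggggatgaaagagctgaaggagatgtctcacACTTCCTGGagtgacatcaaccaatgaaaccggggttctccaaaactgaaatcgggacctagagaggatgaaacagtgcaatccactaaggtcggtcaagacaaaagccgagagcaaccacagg
Slfn2: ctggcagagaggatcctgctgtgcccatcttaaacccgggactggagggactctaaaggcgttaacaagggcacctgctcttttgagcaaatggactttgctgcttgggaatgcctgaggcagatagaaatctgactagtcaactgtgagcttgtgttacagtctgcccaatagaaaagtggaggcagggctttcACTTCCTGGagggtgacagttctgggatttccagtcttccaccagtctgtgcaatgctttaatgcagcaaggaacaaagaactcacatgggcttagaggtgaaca
The run begins 74 bases before the start of Slfn1 and 55 bases before that of Slfn2. It was sought after the sequences were seen, and 0.843% of 32851 mouse promoters hold it on either strand. Between Slfn1 and Slfn2 alone, the shared run extends to 12 bases, and between Slfn1 and Slfn4 to 15. The same run in the intermediate members Slfn3 (chr11:83191273-83191312, +) and Slfn4 (chr11:83175098-83175137, +) stands in these 40 bases.
Slfn3: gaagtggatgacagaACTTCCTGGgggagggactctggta
Slfn4: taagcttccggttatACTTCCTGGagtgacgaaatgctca
Slfn3 and Slfn4 hold the run too, and they were at the floor on 2 and 3 of the arrays.

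The long members carried another feature in their promoters. The interferon-stimulated response element, searched on both strands as GAAA, any 2 bases and GAAA, matched in Slfn5, Slfn8 and Slfn9 and in none of the 4 short and intermediate members, while 3.44% of all promoters hold a match. It is shown in capitals in 40 bases of Slfn5 (chr11:82951932-82951971, +), Slfn8 (chr11:83020834-83020873, -) and Slfn9 (chr11:82991851-82991890, -). In Slfn8 and Slfn9 the match is on the opposite strand, so the capitals there are its reverse complement.
Slfn5: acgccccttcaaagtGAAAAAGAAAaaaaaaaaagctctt
Slfn8: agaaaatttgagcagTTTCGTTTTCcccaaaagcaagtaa
Slfn9: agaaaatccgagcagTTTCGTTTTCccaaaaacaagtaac
The bases directly before and after the match are the same in Slfn8 and Slfn9, so their matches are not separate counts beside 3.44%. In Slfn5 the match runs into a stretch of A bases. Slfn8 and Slfn9 also share a run of 20 bases elsewhere in their promoters, the longest of any pair of members. Of these genes only Slfn9 was above the floor, and its ratios stayed under 2-fold after normalization. For Slfn8, RefSeq lists a further promoter window, which holds the same match. The STAT site TTCNNNGAA, the Smad palindrome GTCTAGAC and the aryl hydrocarbon receptor core GCGTG matched in 0 of 7 members, against 8.30%, 0.213% and 32.4% of all promoters, and the AP-1 site TGANTCA matched in Slfn4 alone, against 7.81%. These are matches of letters in short windows, and sites elsewhere were not searched.

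Because Schlafen genes are known as interferon-induced, 40 other interferon-induced genes were set beside them, of which 21 were above the floor on at least 1 array. Set against IL-6/IL-23, the IL-6/TGFβ array had 1 of these higher and 3 lower, with a median of -0.21. Those past the rule in that comparison were Ifi35 (1.25, higher) and, lower, Ifitm3 (-4.40), Ifitm2 (-3.35), which restrict virus entry, and the RNA sensor Ifih1 (at least 8.01-fold). For IL-6/IL-23 relative to TGFβ, 4 were higher and 1 was lower (median 0.13), the higher ones being Ifitm3 (5.04), Ifih1 (1.80), Ifitm2 (1.72) and the nucleic acid sensor Zbp1 (1.38). The lower one, Ifi35 (-1.08), was named after its values were seen.

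Ifitm2 read 209 with IL-6/TGFβ, 2123 with IL-6/IL-23 and 644 with TGFβ. Ifih1 read 60.2, 698 and 200.2 in the same order of conditions. Both thus had the order of levels seen for Slfn2, with IL-6/IL-23 highest and IL-6/TGFβ lowest. Of the 21 measured interferon-induced genes these 2 had that order with values below the floor raised to it, or 9.52%, beside 19.3% of all measured genes. Oas3 (8.90, 127.5 and 15.2) and Xaf1 (61.5, 119.5 and 62.8) were above the floor with IL-6/IL-23 alone. They had the same order before flooring, but their other values then tied and were not counted. Counted by the 2-fold rule instead, 3 of the 21 were lower for IL-6/TGFβ relative to IL-6/IL-23 and higher for IL-6/IL-23 relative to TGFβ, as Slfn2 was, namely Ifitm2, Ifih1 and Ifitm3. That is 14.3%, beside 1.68% of all measured genes. Both counts were chosen after the values were seen, and they run in opposite directions. The count by order also depends on how values below the floor are treated. Ifitm3 read 173 with IL-6/TGFβ, 3665 with IL-6/IL-23 and 111 with TGFβ. The antiviral genes Mx1, Ifit1, Ifit3 and Oasl2 and the transcription factor gene Irf7 were at the floor on all 3 arrays. Others of the list were above it on all 3. Among them, Ifit2 read 157, 180 and 237, Ddx58 168, 153 and 98.4, Parp14 349, 361 and 443, and Bst2 493, 435 and 399. In IL-6/TGFβ relative to TGFβ, 0 interferon-induced genes were higher and 2 lower, namely Ifitm2 (-1.63) and Ifih1 (at least 2.30-fold), with a median of 0.00.

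Of 16 genes of interferon reception and signalling, 14 were measured. In IL-6/TGFβ relative to TGFβ, 0 were higher and 0 lower (median -0.02). Relative to IL-6/IL-23, 1 was higher with IL-6/TGFβ, the receptor gene Ifngr2 (1.56), and 1 lower, the interferon-γ gene Ifng (at least 2.62-fold), with a median of -0.17. Ifngr2 read 89.7 with IL-6/IL-23, close to the floor of 87.2. For IL-6/IL-23 relative to TGFβ, 0 were higher and 1 was lower, the transcription factor gene Irf8 (-1.41). Ifnb1, the interferon-β gene, was at the floor on all arrays.

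The quiescence and naive T cell genes were examined because of the known role of Slfn2, with 17 of 20 measured. Relative to IL-6/IL-23, 2 were higher and 0 lower with IL-6/TGFβ (median 0.10). These were Klf2, a transcription factor of resting T cells, and Foxo1, which controls it. Klf2 read 339 with IL-6/TGFβ, 92.5 with IL-6/IL-23 and 309 with TGFβ, so it was low on the array where Slfn2 was high. That low value lies close to the floor of 87.2, and the Klf2 ratios to IL-6/IL-23 rest on it. For IL-6/IL-23 relative to TGFβ, 2 were higher and 3 lower (median -0.19). The higher ones were Il7r, the receptor for the survival cytokine IL-7 (1.40), and Btg2, which restrains proliferation (1.26). The lower ones were Klf2 (-1.74), the related transcription factor gene Klf3 (at least 3.12-fold) and Ms4a4b, a T cell membrane protein gene (-1.17), which was named after its values were seen.

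In IL-6/TGFβ relative to TGFβ, 2 quiescence genes were higher and 2 lower (median -0.12). The higher ones were Il7r (2.00) and S1pr1, a receptor for exit from lymph nodes, at least 2.60-fold higher. The lower ones were Ms4a4b (-1.30) and Klf3 (-1.06). Il7r read 676 with IL-6/TGFβ, 447 with IL-6/IL-23 and 169 with TGFβ, the order of levels seen for Slfn1 after normalization. As deposited, Slfn1 did not have that order, with 227 for IL-6/IL-23 and 229 for TGFβ. The share of all genes with this order was not counted. Of the 22 cell cycle genes, 21 were measured and none was 2-fold higher or lower in any of the 3 comparisons, with medians of 0.07 for IL-6/TGFβ relative to TGFβ, 0.14 for IL-6/TGFβ relative to IL-6/IL-23 and -0.01 for IL-6/IL-23 relative to TGFβ.

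**Figure D4:**
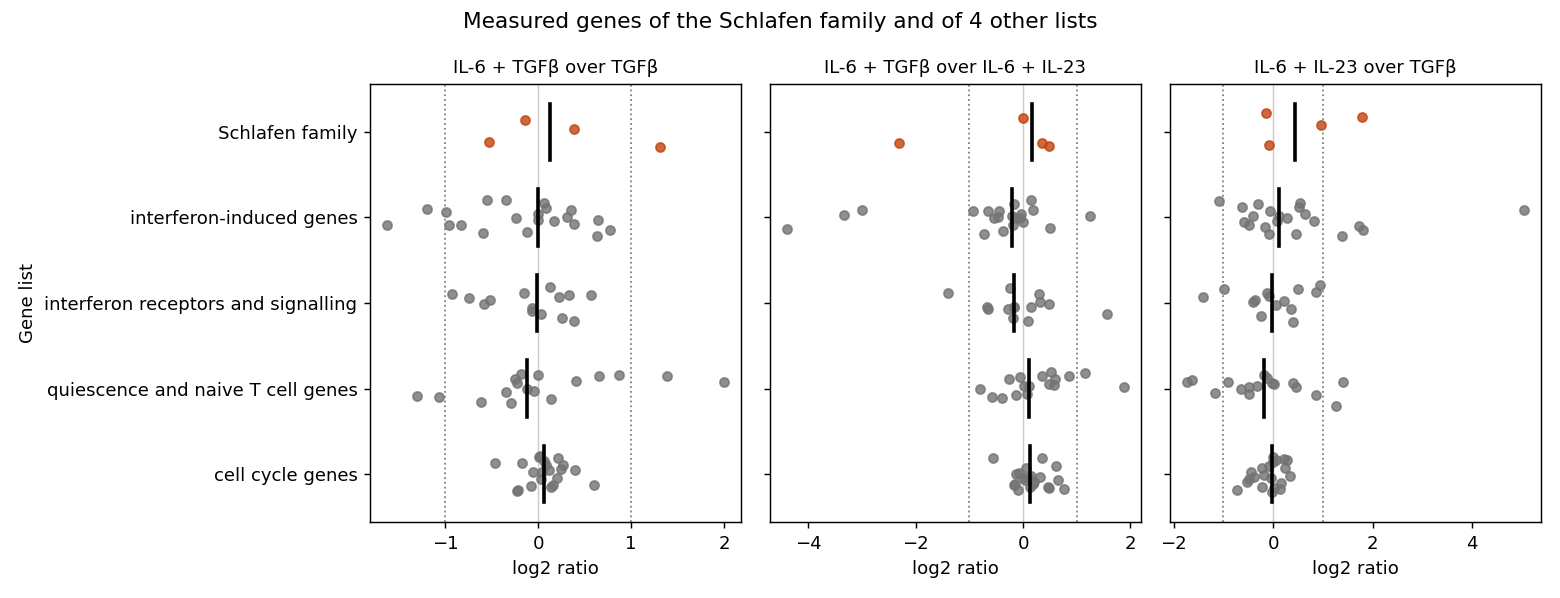
log2 ratios of the measured genes of the Schlafen family and of 4 gene lists in each comparison, 1 point per gene (0 where both arrays were at the floor), with black bars at the medians and dotted 2-fold limits. The Schlafen point at -2.32 for IL-6/TGFβ relative to IL-6/IL-23 is Slfn2, and all cell cycle genes lie inside the limits.

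Markers of other cells were read on the same arrays. Of 7 markers of CD8 T cells and NK cells, 3 were above the floor on at least 1 array, namely Cd8a, Cd8b1 and Eomes, and Ncr1, Gzma, Klrd1 and Klrk1 were at the floor. Cd8b1 read 104 with IL-6/TGFβ, 174 with IL-6/IL-23 and 140.0 with TGFβ. Cd8a read 80.2, 120 and 145 in the same order of conditions. The summed level of the 7 markers was 329 with IL-6/TGFβ, 464 with IL-6/IL-23 and 453 with TGFβ, most readings in it being below the floor. Of the 11 myeloid markers Mpeg1 alone was above the floor, on the TGFβ array. The 5 B cell and 5 dendritic cell markers were below it on every array, so their levels were not compared. None of the 4 measured markers of other cells passed the 2-fold rule, but several of their ratios are bounds. Mpeg1 was at least 1.75-fold and Eomes at least 1.23-fold lower in either other condition than with TGFβ. Cd8a was under the floor with IL-6/TGFβ. For these markers the rule could not tell whether the difference reached 2-fold. The part of such cells in the Schlafen levels was not tested.

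Genes whose pattern over the 3 arrays was nearest to that of Slfn2 or Slfn1 were found among 707 genes measured on all arrays and spanning at least 2-fold. Likeness was the distance between log2 levels centred on each gene's mean, over only 3 arrays. Nearest to Slfn2 were Themis, a T cell receptor signalling gene (distance 0.16), Spry1, an inhibitor of growth factor signalling (0.19), and the glucose transporter gene Slc2a3 (0.21). Themis read 286 with IL-6/TGFβ, 1242 with IL-6/IL-23 and 364 with TGFβ. Nearest to Slfn1 were Malt1, a protease of antigen receptor signalling (0.03), Bend4 (0.09) and Chmp4b, a membrane remodelling gene (0.13), and Malt1 read 3859, 2958 and 1525 in the same order of conditions.

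**Figure D5:**
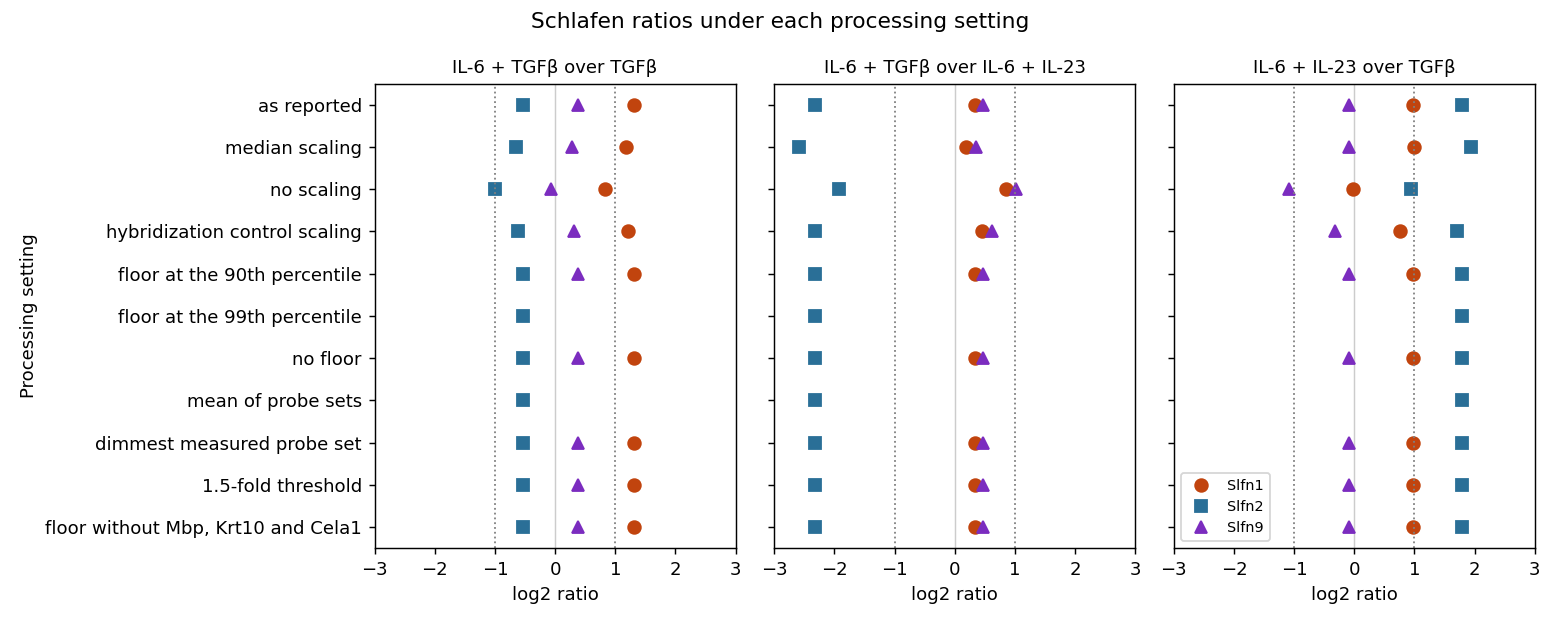
log2 ratios of Slfn1, Slfn2 and Slfn9 under each processing setting, with dotted 2-fold limits; a missing point means that both arrays were then at the floor. Slfn2 stayed between -2.59 and -1.93 for IL-6/TGFβ relative to IL-6/IL-23, and without scaling it was 0.94 for IL-6/IL-23 relative to TGFβ, where Slfn1 was -0.01 and Slfn9 -1.09.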

How the data were processed

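RNA from 3 cultures was labelled with biotin as cRNA and hybridized to Affymetrix arrays, per the labels' protocols. The authors deposited 1 intensity on a linear scale for each probe set of each array. Software, background correction and scaling are not stated in the labels used. Of 45101 probe sets, 64 controls were left out. Because array medians differed by more than 10%, log2 intensities were quantile-normalized (numpy 2.4.6, pandas 2.3.3), which removes any true difference in total mRNA. Values below the floor were raised to it, so a ratio between a floored and a measured array is a bound. In list medians and in ranks among all genes, a gene with both arrays at the floor entered as 0. Symbols came from the platform annotation: 34945 probe sets had 1 gene, 932 several and 9160 were unnamed here, and RefSeq identifiers changed 0 symbols. Each gene was read from the brightest of its probe sets on average. With 1 array per condition no test was possible, and the number of arrays limits the precision.

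The members and lists were chosen with earlier results of these data known. The genes named were all members, up to 4 genes of each list with the largest ratios past 2-fold, the 5 nearest measured neighbours on either side, the 3 nearest patterns, and Stat6 and Tbx21. Named in addition were Cd4, the interferon genes at the floor, Bst2, Ifit2, Ddx58, Parp14, Oas3, Xaf1 and the markers of other cells. On simulated data, changes past the 2-fold limit were planted in genes more than 2-fold above the floor, to check the normalization and the limit. The floor and the bounds were not part of that check, so it says nothing on calls near the floor. In all, 9 gene lists and 10 alternative settings were run, 9 of them planned.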

Additional observations from a re-analysis of the deposited data

How the results depend on the processing

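Intensities as deposited, with no scaling, moved the median log2 ratio, over genes read on both arrays, to -0.42 for IL-6/TGFβ relative to TGFβ, 0.41 for IL-6/TGFβ relative to IL-6/IL-23 and -0.84 for IL-6/IL-23 relative to TGFβ, and median scaling to -0.22 and 0.13 in the last 2 of these. Relative to these medians the Slfn2 ratios for IL-6/TGFβ relative to IL-6/IL-23 were -2.33 without scaling and -2.36 with median scaling, and the Slfn9 ratios without scaling were 0.61 in that comparison and -0.24 for IL-6/IL-23 relative to TGFβ. Without scaling, 0 members were higher for IL-6/TGFβ relative to TGFβ, 1 (Slfn9) was higher for IL-6/TGFβ relative to IL-6/IL-23, and 0 were higher and 1 (Slfn9) lower for IL-6/IL-23 relative to TGFβ. For IL-6/TGFβ relative to TGFβ, 0 members were higher with the floor at the 99th percentile, where Slfn1 fell under it, and 0 with probe sets averaged per gene, where the dim Slfn1 probe set pulled it under. With no floor, 1 member (Slfn5) was lower in IL-6/TGFβ relative to TGFβ and 1 in IL-6/IL-23 relative to TGFβ. A 1.5-fold threshold gave 2 members higher in IL-6/IL-23 relative to TGFβ. All other counts of members kept their values, and Slfn2 was the lower member for IL-6/TGFβ relative to IL-6/IL-23 in every setting run. Its 1 probe set lay above the floor on all arrays throughout, so only the scaling settings could change this ratio.

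Over all genes, 214 were higher and 150 lower for IL-6/TGFβ relative to TGFβ, against 100 and 549 without scaling and 161 and 188 with median scaling. For IL-6/TGFβ relative to IL-6/IL-23 the counts were 308 and 262, against 807 and 100 without scaling, 225 and 391 with median scaling and 375 and 205 with scaling on 18 hybridization controls. For IL-6/IL-23 relative to TGFβ they were 273 and 259, against 67 and 2730 without scaling and 200 and 378 with the controls. In the same order of comparisons, higher and lower counts were 75 and 40, 111 and 85, and 93 and 80 with the floor at the 99th percentile. They were 2158 and 1978, 2387 and 2462, and 2496 and 2240 with no floor, and 602 and 522, 811 and 840, and 788 and 716 at 1.5-fold. Of 96 member ratios under the alternatives, 80 moved by less than the probe-set spread, 16 by more, and 0 called ratios changed sign. Many of the 80 could not move. A 1.5-fold threshold changes no ratio, and each measured member had only 1 probe set above the floor, so taking the dimmest measured one changed none. Without scaling, every ratio of Slfn1, Slfn2 and Slfn9 moved by more than the spread. No paired analysis was possible because each condition has 1 array.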
